A study of Mus musculus with 8 samples.

Results

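The transcripts described here are those of 26 genes that make cholesterol or control its synthesis through sterol regulatory element binding protein 2 (SREBP2). They were taken as a list of symbols with known roles in the pathway, with earlier results of these data known. All 26 were found among the 35275 Ensembl genes of the deposited count table. All 26 were also among the 13168 genes that passed the filter on low counts, so none is missing from the tests below. The list holds 6 enzymes from acetyl-CoA to isopentenyl diphosphate, 2 enzymes that lengthen it, 3 that build squalene and lanosterol, 9 that turn lanosterol into cholesterol, 4 proteins of the sterol sensor, and 2 proteins that move or esterify the product.

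RNA was sequenced from the livers of 4 male Pcx L-/- mice and 4 littermate controls on a C57BL/6 background, all 9 weeks old and all fasted for 24 h. Pcx L-/- mice carry 2 floxed alleles of Pcx, the gene of pyruvate carboxylase, and a Cre recombinase driven by the albumin promoter, which acts in hepatocytes, so other cells of the liver are not targeted. Controls carry the same floxed alleles (Pcx f/f), and the sample labels call them WT. Each library came from the whole liver RNA of a separate mouse. Every value is that of a fasted liver.

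Cells make cholesterol from acetyl-CoA by way of mevalonate, farnesyl diphosphate, squalene and lanosterol. SREBP2 is a membrane-bound transcription factor that Scap escorts from the endoplasmic reticulum to the Golgi when sterols are low, where proteases free its active part. When sterols are plentiful, Insig proteins hold Scap back and the genes of the pathway are transcribed less. The liver is a main site of this synthesis, and fasting is known to lower it.

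Promoter sequences of the set are shown first, because most genes of the pathway are known targets of a shared factor and yet, as given below, they moved in different directions. RefSeq start sites gave a window for 21 of the 26 genes. Fdps, Fdft1, Sqle, Stard4 and Soat2 had no entry. The 250 bases before the start (GRCm38.p6) are printed 5′ to 3′ for Hmgcs1, which did not pass the test, for Lss, which was higher in Pcx L-/- liver, and for Srebf2 and Insig1, which were lower. Capitals mark the letters TCACNCCAC (a sterol regulatory element), CCAAT (the box of NF-Y) and GGGCGG (the box of Sp1), or their reverse complements GTGGNGTGA, ATTGG and CCGCCC.
Hmgcs1, chr13:119690101-119690350, plus strand: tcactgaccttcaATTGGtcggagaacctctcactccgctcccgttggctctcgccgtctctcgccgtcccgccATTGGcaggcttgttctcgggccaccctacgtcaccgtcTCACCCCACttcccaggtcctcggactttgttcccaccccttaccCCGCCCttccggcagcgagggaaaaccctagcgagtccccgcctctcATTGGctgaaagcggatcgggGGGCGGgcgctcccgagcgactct
Lss, chr10:76531355-76531604, plus strand: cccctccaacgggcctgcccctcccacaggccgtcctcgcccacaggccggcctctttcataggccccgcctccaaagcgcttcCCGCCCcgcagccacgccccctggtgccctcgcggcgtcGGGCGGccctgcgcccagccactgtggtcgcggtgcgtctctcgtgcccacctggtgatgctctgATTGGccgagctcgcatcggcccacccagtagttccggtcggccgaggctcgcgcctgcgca
Srebf2, chr15:82147019-82147268, plus strand: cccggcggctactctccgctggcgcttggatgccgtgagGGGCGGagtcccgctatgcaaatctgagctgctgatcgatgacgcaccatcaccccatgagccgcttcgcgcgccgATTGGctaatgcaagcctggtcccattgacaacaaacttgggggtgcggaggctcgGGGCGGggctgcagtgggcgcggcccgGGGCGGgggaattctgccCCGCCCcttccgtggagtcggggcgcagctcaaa
Insig1, chr5:28071162-28071411, plus strand: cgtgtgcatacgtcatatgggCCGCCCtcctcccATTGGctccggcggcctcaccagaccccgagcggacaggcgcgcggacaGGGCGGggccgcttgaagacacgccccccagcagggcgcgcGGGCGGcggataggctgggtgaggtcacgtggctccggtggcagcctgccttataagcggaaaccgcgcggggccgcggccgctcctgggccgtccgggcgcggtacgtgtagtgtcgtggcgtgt

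In windows from 250 bases before to 50 bases after the start, TCACNCCAC was found in 1 of the 21 genes of the set, Hmgcs1, where it lies 137 bases before the start, and in 1.44% of the 27025 genes with a window. CCAAT was found in 19 of 21, or 90.5%, against 41.1% of all genes, and was missing from the windows of Acat2 and Scap. GGGCGG was also found in 19 of 21, against 38.2% of all genes, and was missing from Ggps1 and Pmvk. All 21 passed the filter on low counts, whereas the 27025 genes were not limited to those that did. A gene with more than 1 window was counted if any of them matched. Both strands were searched, ATTGG can share its last letters with GGGCGG, and a match describes these letters alone. Variants of TCACNCCAC were not searched, so a window without a match is not shown to lack a sterol regulatory element. Boxes of both kinds stood in windows of genes that fell or were not called and in that of Lss. Lss was the only higher gene with a window, so the higher genes as a group could not be examined.

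The 8 libraries held between 12016242 and 20023108 reads on genes, and replicates of a genotype differed by more than counting noise. Pcx had between 556 and 758 normalized counts in the Pcx L-/- libraries and between 14371 and 22059 in the controls, so no label was contradicted. Hepatocyte markers were abundant in every library, with albumin alone taking between 4.73% and 7.0% of the reads. Their summed normalized count was lower in all 4 Pcx L-/- mice (915836 to 1392110) than in the controls (1592850 to 1973900), and 1 of the 6, Apoa1, passed the test as lower. Albumin made up most of that sum and was itself not called (adjusted p = 0.0532 by edgeR). Ttr, Tat, Cps1 and Hnf4a overlapped between genotypes and were not called. In bulk tissue fewer hepatocytes, less RNA per hepatocyte and less of single transcripts such as albumin cannot be told apart. No marker of Kupffer, endothelial or stellate cells passed the test, 1 of 5 cholangiocyte markers was lower, and no marker of any list was at 0. The part of these shifts in the results below was not tested.

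Pcx L-/- replicate 1 stood apart from the other 3 mice of its genotype. Its red blood cell markers summed to 69307 normalized counts, against 6244 to 15778 in the other Pcx L-/- mice and 4747 to 16715 in the controls. It is also the only Pcx L-/- mouse whose number lies in the 500s, with control replicates 1 and 2, while the other 5 mice are numbered in the 800s. For 11 of the 26 genes its value lay inside the control range, against 5, 8 and 7 genes in replicates 2, 3 and 4. Of the 13 genes called below, it was the Pcx L-/- mouse nearest to the control mean in 10. The fits without it are given below, and the part of blood or of the mouse number in its values was not tested.

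The pathway did not move as a unit in fasted Pcx L-/- liver. The synthases of farnesyl diphosphate (Fdps) and lanosterol (Lss), squalene epoxidase (Sqle) and the cholesterol esterifying enzyme Soat2 rose, by between 1.71-fold and 3.83-fold in mean normalized count. SREBP2 itself (Srebf2), its escort Scap, its retention factor Insig1, the sterol transfer protein Stard4 and the enzymes Acat2, Fdft1, Tm7sf2, Hsd17b7 and Dhcr7 fell, to between 44.3% and 75.4% of control. The other 13 genes did not pass the test. A normalized count is a count divided by its library's size after edgeR's TMM correction, relative to the geometric mean of the 8 corrected sizes. The test was edgeR's quasi-likelihood F test on genotype, and p-values were adjusted by the Benjamini-Hochberg method across the 13168 genes, with 0.05 as the threshold.

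By this test 13 of 26 genes, or 50%, were called, where 27.6% of all genes tested were. Higher calls made up 4 of 26, or 15.4%, which is near the 14.1% of all genes. Lower calls made up 9 of 26, or 34.6%, against 13.5% of all genes. For 12 of the 26 genes the values of the 4 mice of a genotype all lay beyond those of the other, which held for 27.6% of all genes. The median log2 fold change of the 26 was -0.27, and that of all genes was -0.01. No test of the list as a whole was made. The list was chosen with earlier results of these data known. The part of that choice in these shares, and in those of its groups below, was not tested. A change of at least 2-fold in the fit was found for Fdps and Sqle among the higher genes and for Insig1 among the lower.

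**Figure D1:**
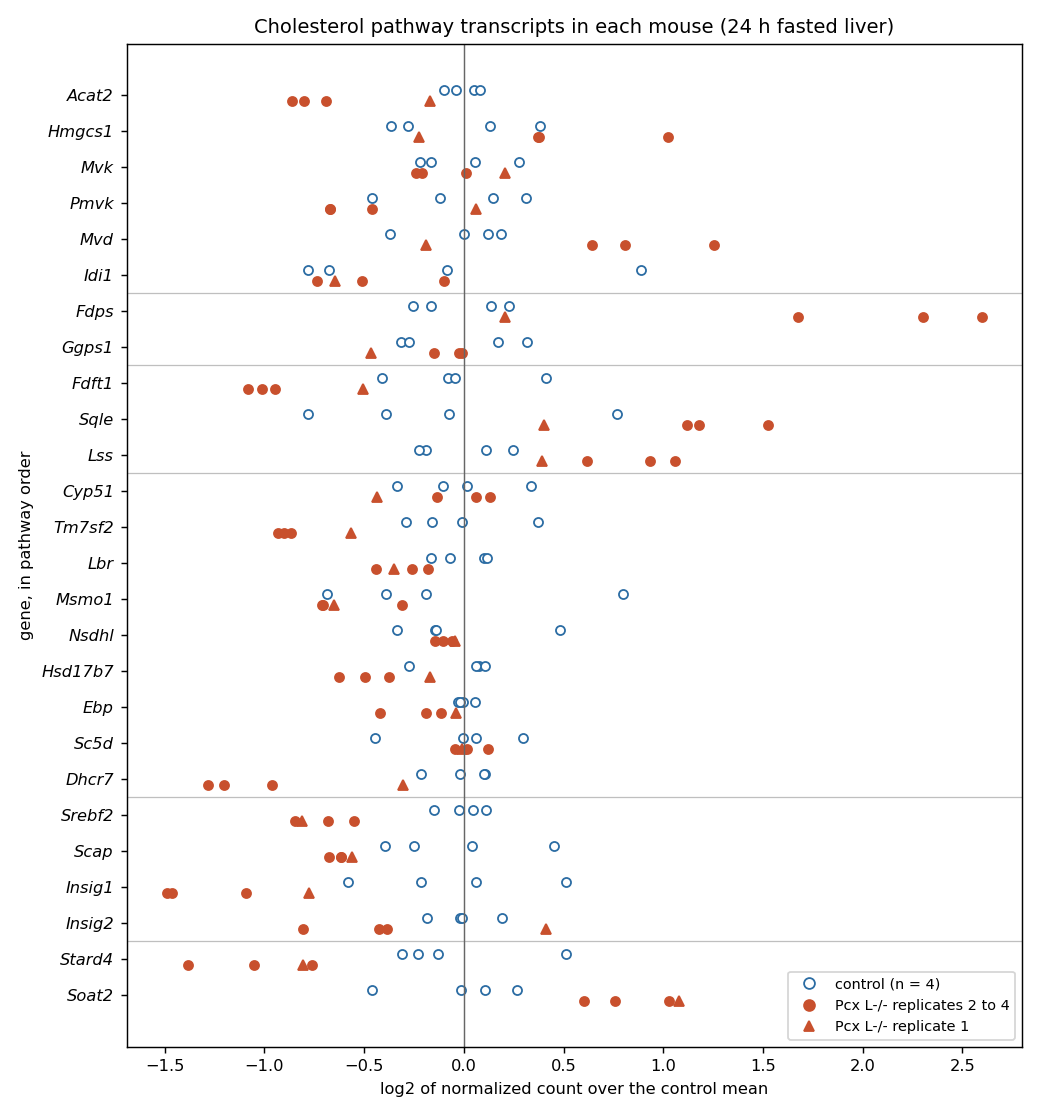
Normalized counts of the 26 genes in each mouse, as log2 of the value over the control mean of that gene, in pathway order from top to bottom; horizontal lines part the groups of genes. Open circles are the 4 controls, filled circles Pcx L-/- replicates 2 to 4, and triangles Pcx L-/- replicate 1, which for Fdps (328 normalized counts) lies among the controls (239 to 334) while the other 3 lie between 909 and 1724.

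In the arm from acetyl-CoA to isopentenyl diphosphate, 1 of 6 genes was called (16.7%, against 27.6% of all genes tested). Acat2 (ENSMUSG00000023832, chr17:12942890-12960747 of GRCm38), whose cytosolic enzyme joins acetyl-CoA units to acetoacetyl-CoA, had 466, 496, 507 and 448 normalized counts in control replicates 1 to 4 and 426, 264, 275 and 297 in Pcx L-/- replicates 1 to 4. The genotypes did not overlap, although Pcx L-/- replicate 1 came close to the controls. Acat2 fell by 0.61 on the log2 scale (SE 0.15, adjusted p = 0.0129 by edgeR).

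Hmgcs1, the cytosolic synthase of HMG-CoA, had 748, 1256, 1053 and 794 normalized counts in controls and 825, 1959, 1246 and 1250 in Pcx L-/- mice. Its values overlapped and the log2 fold change of 0.45 (SE 0.24) did not pass (adjusted p = 0.191 by edgeR), but without Pcx L-/- replicate 1 it was 0.62 with an adjusted p of 0.0386. Mvd, which decarboxylates mevalonate diphosphate, had 60, 57, 53 and 41 normalized counts in controls and 46, 126, 82 and 92 in Pcx L-/- mice. All but replicate 1 of the Pcx L-/- mice were above every control. The log2 fold change of Mvd was 0.71 (SE 0.28, adjusted p = 0.0812 by edgeR), and 0.91 without that mouse (adjusted p = 0.00764).

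Of the kinases of the arm, Pmvk, the phosphomevalonate kinase, had 256, 287, 213 and 168 normalized counts in controls and 241, 145, 168 and 145 in Pcx L-/- mice. Replicate 1 lay inside the control range, and the other 3 Pcx L-/- mice were at or below the lowest control. Its log2 fold change of -0.41 (SE 0.20, adjusted p = 0.158 by edgeR) passed only without Pcx L-/- replicate 1 (-0.61, adjusted p = 0.0233) among the 18 alternatives. Mevalonate kinase (Mvk) ran from 141 to 198 normalized counts in controls and from 139 to 189 in Pcx L-/- mice, with a log2 fold change of -0.05 (SE 0.16). Idi1, the isomerase that ends the arm, varied most among the controls, with 62, 183, 94 and 58 normalized counts against 63, 60, 93 and 69 in Pcx L-/- mice. Its log2 fold change of -0.48 had an SE of 0.34 and was not called (adjusted p = 0.318 by edgeR).

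Fdps (ENSMUSG00000059743, chr3:89093588-89101959) encodes farnesyl diphosphate synthase, at the point where the path parts toward sterols, ubiquinone and the lipid tails of proteins. It had 239, 334, 313 and 255 normalized counts in controls and 328, 1724, 909 and 1405 in Pcx L-/- mice. Replicate 1 lay inside the control range, and the other 3 Pcx L-/- mice were each more than every control. The mean rose 3.83-fold, the largest change of the 26 genes in either direction, with a log2 fold change of 1.94 (SE 0.39, adjusted p = 0.00527 by edgeR). Without replicate 1 it was 2.24 (adjusted p = 2.42e-05). An exon of Fdps shares its strand and position with the annotated gene Gm43738, which has no row in the count table, so the reads cannot be split between them. Ggps1, which adds the next isoprene unit for protein geranylgeranylation, had 133, 120, 86 and 88 normalized counts in controls and 77, 96, 105 and 106 in Pcx L-/- mice, with a log2 fold change of -0.16 (SE 0.19, adjusted p = 0.57 by edgeR). Its exons overlap Arid4b on the opposite strand, which had a mean of 461.5 reads in controls and 582 in Pcx L-/- mice. Ggps1 itself had 97 and 112.5, so its reads are uncertain if counting did not use strand.

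All 3 genes between farnesyl diphosphate and lanosterol passed the test, where 27.6% of all genes did, and they did so in opposite directions. Fdft1 (ENSMUSG00000021273, chr14:63145150-63179578), squalene synthase, commits farnesyl diphosphate to sterols. It had 936, 1314, 958 and 743 normalized counts in controls and 696, 467, 513 and 489 in Pcx L-/- mice. No Pcx L-/- mouse reached the lowest control, and the log2 fold change was -0.87 (SE 0.18, adjusted p = 0.00587 by edgeR). Fdft1 shares exonic sequence with Ctsb on the opposite strand, which had a mean of 7405 reads in controls and 8898 in Pcx L-/- mice, and the sources used here do not say whether counting used strand.

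Sqle (ENSMUSG00000022351, chr15:59315077-59331192), the epoxidase that opens the oxygen-dependent part of the path, had 80, 235, 131 and 105 normalized counts in controls and 182, 312, 397 and 300 in Pcx L-/- mice. Replicate 1 of the Pcx L-/- mice was below the highest control, and the others were above all controls. Sqle rose by a log2 fold change of 1.11 (SE 0.31, adjusted p = 0.0233 by edgeR), but the call was lost without control 1, 3 or 4 and without Pcx L-/- mouse 2, 3 or 4, with an adjusted p of 0.0714 at most. Lss (ENSMUSG00000033105, chr10:76531588-76557138), which closes the sterol rings, had 344, 466, 425 and 336 normalized counts in controls and 515, 818, 602 and 750 in Pcx L-/- mice. These did not overlap. The log2 fold change of Lss was 0.77 (SE 0.16, adjusted p = 0.00659 by edgeR), and it was called in all 18 alternatives.

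**Figure D2:**
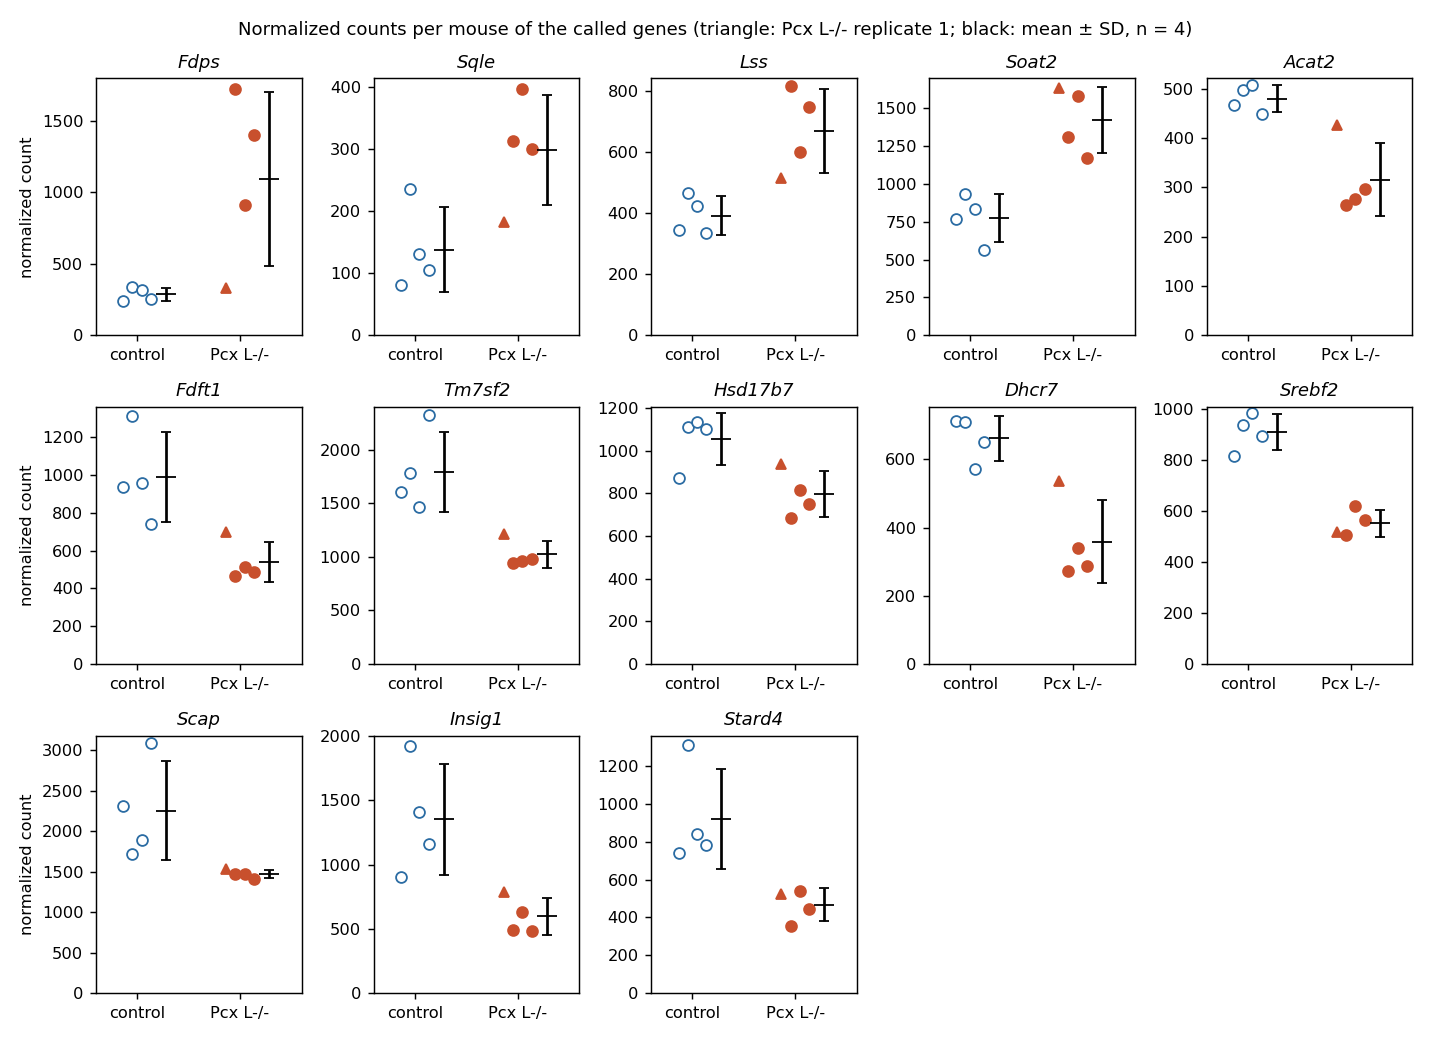
Normalized counts per mouse of the 13 called genes, 4 higher and then 9 lower in Pcx L-/- liver, each on its own axis from 0. Open circles are controls, filled symbols Pcx L-/- mice with replicate 1 as a triangle, and black marks give the mean ± SD (n = 4); in Fdps, Sqle and Hsd17b7 the genotypes overlap.

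Of the 9 genes from lanosterol to cholesterol, 3 fell (33.3%, against 13.5% of all genes tested), none rose, and 6 did not pass the test. Tm7sf2 (ENSMUSG00000024799, chr19:6062821-6068373), a sterol reductase of the endoplasmic reticulum that acts after the lanosterol demethylase Cyp51, had 1605, 1780, 1467 and 2325 normalized counts in controls and 1212, 939, 961 and 984 in Pcx L-/- mice. Every Pcx L-/- value was below every control value. Tm7sf2 fell by 0.81 on the log2 scale (SE 0.15, adjusted p = 0.00382 by edgeR). An exon overlaps Vps51 on the same strand, which had a mean of 237 reads in controls and 369.5 in Pcx L-/- mice, against 1535 and 1186 for Tm7sf2. Lbr, the lamin B receptor of the nuclear envelope, carries the same reductase activity. Its 166 to 202 normalized counts in controls and 137 to 164 in Pcx L-/- mice did not overlap, but its log2 fold change of -0.31 was not called (SE 0.13, adjusted p = 0.0937 by edgeR).

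Dhcr7 (ENSMUSG00000058454, chr7:143823145-143848410) encodes the reductase of the last step to cholesterol. It had 713, 710, 571 and 652 normalized counts in controls and 535, 272, 340 and 288 in Pcx L-/- mice, which did not overlap. The log2 fold change was -0.88 (SE 0.20, adjusted p = 0.00796 by edgeR) and -1.14 without Pcx L-/- replicate 1 (adjusted p = 7.41e-05). Hsd17b7 (ENSMUSG00000026675, chr1:169949535-169969241), a ketosteroid reductase of the demethylation steps, had 872, 1113, 1136 and 1103 normalized counts in controls and 939, 684, 814 and 750 in Pcx L-/- mice. The genotypes overlapped through control replicate 1 and Pcx L-/- replicate 1. Its log2 fold change of -0.41 (SE 0.13, adjusted p = 0.0355 by edgeR) passed in 7 of 18 alternatives, the fewest of the 13 calls. Among the fits that left out a mouse, the call was lost without control 2, 3 or 4 and without Pcx L-/- mouse 2, 3 or 4. The adjusted p by edgeR was 0.111 at most in those fits. The call was also lost with library size only (adjusted p = 0.427 by edgeR), with each limma fit and with the replicate block.

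The other enzymes of this stretch gave no call. Cyp51 had a log2 fold change of -0.08 (SE 0.16), Nsdhl, which removes a carboxyl group during demethylation, -0.09 (SE 0.18), and the desaturase Sc5d 0.02 (SE 0.15). Exons of Cyp51 overlap Akap9 on the opposite strand, so its reads are uncertain in the same way as those of Fdft1. Msmo1, the methylsterol oxidase, had 513, 1017, 447 and 363 normalized counts in controls and 373, 357, 472 and 359 in Pcx L-/- mice. Control replicate 2 stood above the other controls, and the log2 fold change of -0.59 had an SE of 0.27 (adjusted p = 0.13 by edgeR). The isomerase Ebp ran from 2393 to 2537 normalized counts in controls and from 1827 to 2378 in Pcx L-/- mice. Its values did not overlap, yet the log2 fold change was -0.18 and not called (SE 0.11, adjusted p = 0.24 by edgeR).

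Among the proteins of the sterol sensor, 3 of 4 genes fell (75%, against 13.5% of all genes tested). Srebf2 (ENSMUSG00000022463, chr15:82147181-82205379) had 817, 938, 982 and 894 normalized counts in controls and 518, 505, 620 and 566.6 in Pcx L-/- mice. Replicate 1 lay among the other Pcx L-/- mice here, and the genotypes were well apart. SREBP2 is made as a precursor and acts after cleavage, so its transcript is not a measure of its activity. Srebf2 fell by 0.72 on the log2 scale (SE 0.11, adjusted p = 0.0013 by edgeR, the smallest of the 26), and by 0.69 without that mouse (adjusted p = 0.000845).

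Insig1 (ENSMUSG00000045294, chr5:28071363-28078662) is itself a target of SREBP2 and closes a feedback loop by holding Scap in the endoplasmic reticulum. It had 905, 1927, 1411 and 1164 normalized counts in controls and 789, 491, 634 and 482 in Pcx L-/- mice. All Pcx L-/- mice were below all controls, and Insig1 was reduced to 44.3% of control, the largest fall of the 26 genes. The log2 fold change was -1.17 (SE 0.23, adjusted p = 0.00451 by edgeR) and -1.34 without Pcx L-/- replicate 1. Scap (ENSMUSG00000032485, chr9:110333288-110384950) had 2319, 1717, 1898 and 3092 normalized counts in controls and 1529, 1470, 1471 and 1414 in Pcx L-/- mice. The Pcx L-/- mice were close together and below the spread of the controls. Scap had a log2 fold change of -0.62 (SE 0.17, adjusted p = 0.0188 by edgeR), which passed in 11 of 18 alternatives. Among the fits that left out a mouse, the call was lost without Pcx L-/- mouse 2, 3 or 4, with an adjusted p by edgeR of 0.0603 at most. The call was also lost with library size only (adjusted p = 0.108 by edgeR) and with each limma fit.

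Insig2, the second retention factor, is known to be expressed in fasted liver and repressed by insulin. It had 3577, 3193, 3607 and 4139 normalized counts in controls and 4827, 2078, 2778 and 2706 in Pcx L-/- mice. Replicate 1 was the highest of all 8 mice, whereas the other 3 Pcx L-/- mice were the lowest. The log2 fold change was -0.23 and not called (SE 0.22, adjusted p = 0.482 by edgeR), and it was -0.53 without replicate 1 (adjusted p = 0.0111). No other gene of the set had Pcx L-/- mice both above and below all controls.

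Both genes of sterol handling passed, where 27.6% of all genes did, in opposite directions. Stard4 (ENSMUSG00000024378), which carries cholesterol between membranes and is a known SREBP2 target, had 742, 1312, 839 and 784 normalized counts in controls and 527, 353, 542 and 444 in Pcx L-/- mice. These did not overlap, and Stard4 fell by 0.98 on the log2 scale (SE 0.20, adjusted p = 0.00506 by edgeR). Soat2 (ENSMUSG00000023045, chr15:102150526-102163469) encodes the sterol acyltransferase that makes cholesteryl esters in hepatocytes, and its product is often called ACAT2 although it is unrelated to the Acat2 gene above. It had 767, 933, 833 and 563.4 normalized counts in controls and 1636, 1311, 1579 and 1175 in Pcx L-/- mice. Each Pcx L-/- mouse exceeded each control, replicate 1 by the most. Soat2 rose 1.84-fold, with a log2 fold change of 0.88 (SE 0.16, adjusted p = 0.00356 by edgeR), and was called in all 18 alternatives.

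Levels can be compared between genes only per length, as in the deposited FPKM (fragments scaled by gene length and library total). In controls the highest levels were those of Ebp (74.9 ± 4.91 FPKM, SD, n = 4), Sc5d (71.9 ± 17.8), Insig2 (71.5 ± 4.12) and Tm7sf2 (63.5 ± 9.92). The first 3 lay within their spread of each other. Mvd (1.61 ± 0.334), Sqle (1.66 ± 0.876) and Idi1 (1.77 ± 1.1) were the lowest and likewise did not differ beyond their spread. Levels within the path thus differed far more between enzymes than any gene did between genotypes. Fdps moved from 12.3 ± 2.37 FPKM, rank 11 of 26, to 59.0 ± 34.7 FPKM, rank 4, while Dhcr7 moved from rank 10 to rank 15. Summed over the 26 genes, FPKM were 453 to 578 in controls and 515 to 588 in Pcx L-/- mice, and these ranges overlapped. FPKM carry no TMM correction, so comparisons of them between genotypes share the shift given below for scaling by library size only.

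**Figure D3:**
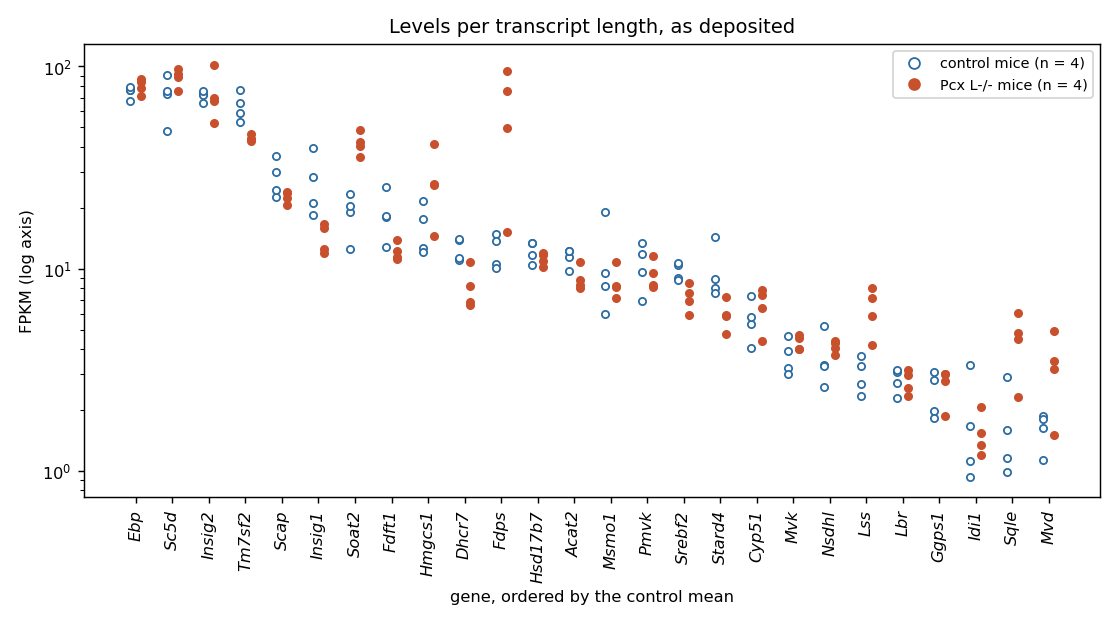
Deposited FPKM of the 26 genes in each mouse on a log axis, with genes ordered from left to right by the control mean. Open circles are the 4 controls and filled circles the 4 Pcx L-/- mice; Ebp, Sc5d and Insig2 are highest in controls (71.5 to 74.9 FPKM), Mvd, Sqle and Idi1 lowest (1.61 to 1.77), and Fdps spans 15.1 to 95.2 FPKM among the Pcx L-/- mice.

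The directions depend in part on how libraries are scaled. TMM factors were 0.833 to 0.942 in controls and 0.970 to 1.16 in Pcx L-/- mice. When libraries were scaled by their size only, the all-gene median of the log2 fold change was 0.28 in place of -0.01, and higher genes made up 81.8% of all calls in place of 51.1%. On that scale 6 of the 26 genes were higher, where 29.7% of all genes were, and 6 were lower, where 6.61% were. Hmgcs1 and Mvd joined the higher calls, and Acat2, Hsd17b7 and Scap left the lower calls. The median of the 26 became 0.00339 and stayed below that of all genes. The signs of Mvk, Ggps1, Cyp51, Nsdhl, Ebp and Insig2, none of them called, were positive on that scale. Fdft1, Tm7sf2, Dhcr7, Srebf2, Insig1 and Stard4 were lower and Fdps, Sqle, Lss and Soat2 higher on both scales.

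**Figure D4:**
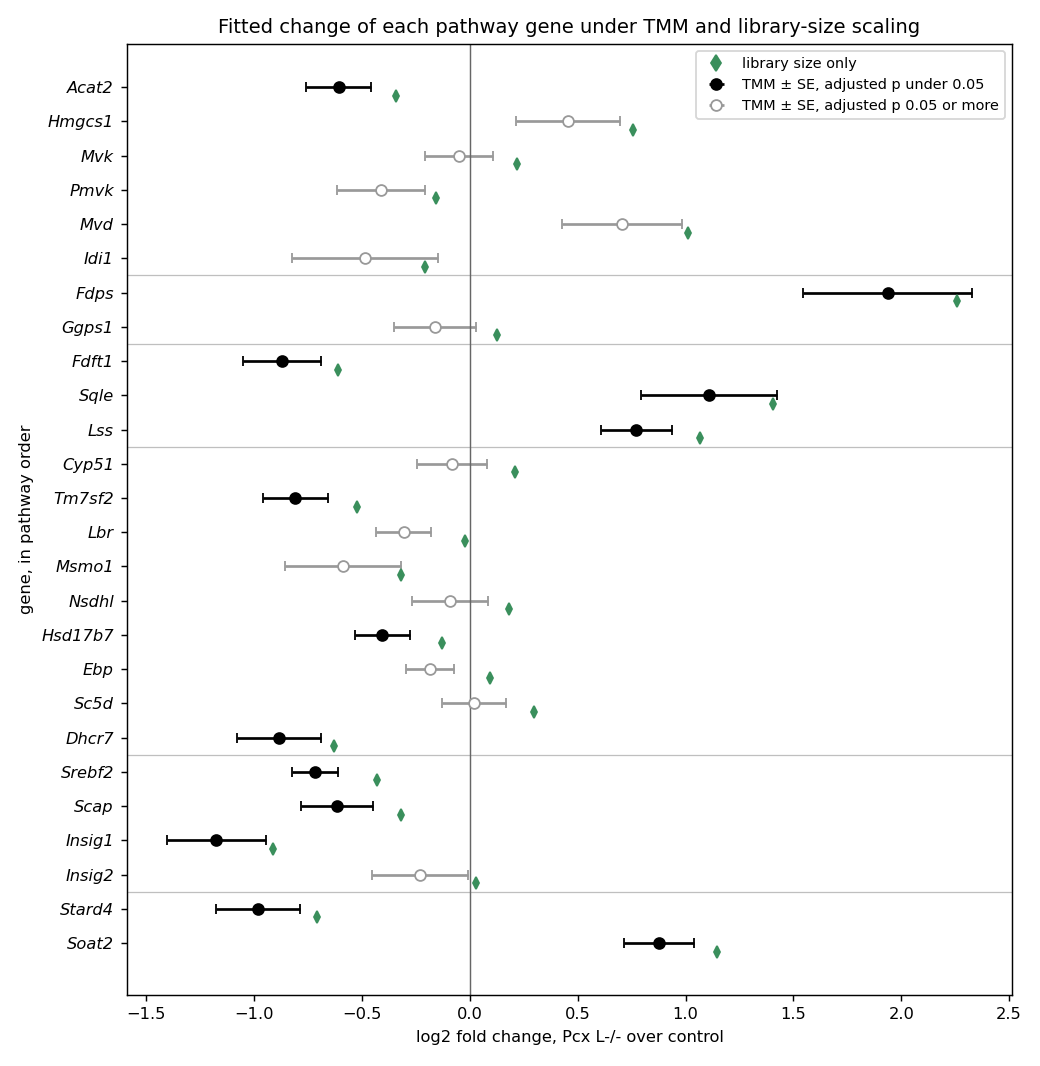
Log2 fold change of each of the 26 genes, Pcx L-/- over control, in pathway order. Circles with bars are the fit with TMM factors ± SE (black: adjusted p under 0.05), and diamonds the fit scaled by library size only, which lies to the right of the circle for every gene; Fdps is farthest right (1.94) and Insig1 farthest left (-1.17) on the TMM scale.

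Ratios of genes within a library do not depend on its scaling. They are described here with no test, since the pairs were chosen after the values were seen. Reads on Fdps over reads on Fdft1, the enzyme that takes up its product for sterols, came to 0.255, 0.254, 0.327 and 0.342 in controls and 0.472, 3.69, 1.77 and 2.87 in Pcx L-/- mice. The ratio was thus above every control in all 4 Pcx L-/- mice. In replicate 1, however, Fdps itself (328 normalized counts) lay inside the control range of 239 to 334. Only Fdft1 (696, against 743 in the lowest control) lay outside it, and its reads are uncertain as given above. Sqle over Fdft1 had a mean of 0.136 ± 0.0383 (SD, n = 4) in controls and 0.579 ± 0.222 in Pcx L-/- mice. Soat2 over Stard4 was 0.864 ± 0.173 in controls and 3.10 ± 0.454 in Pcx L-/- mice, and Insig1 over Insig2 0.382 ± 0.159 and 0.202 ± 0.0361. None of these ratios overlapped between genotypes. Except for Insig1 over Insig2, each pair sets a gene called higher over one called lower. Their separation thus follows in part from those calls and adds no evidence to them.

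The calls were repeated under 18 alternatives of scaling, filter, test, covariate and mice left out. Fdps, Lss, Soat2, Tm7sf2, Dhcr7 and Srebf2 were called in all 18, and none of the 13 called genes changed sign in any. Insig1 and Stard4 were called in 17, Fdft1 in 16, Acat2 in 14, Sqle in 12, Scap in 11 and Hsd17b7 in 7. Without Pcx L-/- replicate 1 the set had 6 higher and 11 lower genes, where 16.7% and 17.8% of all genes were higher and lower. Of the called genes whose value without that mouse is not given above, the log2 fold change then was -0.79 for Acat2, -1.02 for Fdft1, -0.90 for Tm7sf2, -0.49 for Hsd17b7, -0.63 for Scap, -1.05 for Stard4, 1.28 for Sqle, 0.88 for Lss and 0.80 for Soat2, each with an adjusted p of 0.0179 or less by edgeR. The change was thus smaller without it for Srebf2 and Soat2, and larger for the other 11. Within the mice numbered in the 800s, 2 controls and 3 Pcx L-/- mice, it had 6 higher and 10 lower genes, where 14.0% and 15.8% of all genes were higher and lower, and all 13 calls were among them.

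A further list of 32 genes that supply, sense, export or use the products of the pathway was examined in the same fit. This list too was chosen with earlier results of these data known. It held 5 higher genes, or 15.6% against 14.1% of all genes tested, and 7 lower genes, or 21.9% against 13.5%, with a median log2 fold change of -0.16. For 12 of the 32, or 37.5%, the genotypes did not overlap, against 27.6% of all genes. Among 7 genes that cut SREBPs or act in the degradation of sterol-regulated proteins, 2 rose and 1 fell. Erlin1, a scaffold protein of the endoplasmic reticulum, had 594, 715, 670 and 485 normalized counts in controls and 1048, 1224, 1168 and 1103 in Pcx L-/- mice. These were well apart, and the log2 fold change of Erlin1 was 0.88 (SE 0.13, adjusted p = 0.00118 by edgeR). The protease Mbtps2 rose (0.49, SE 0.14) and the ubiquitin ligase Rnf145 fell (-0.52, SE 0.15).

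The sterol-responsive gene Tmem97 had 888, 1125, 903 and 939 normalized counts in controls and 1420, 1980, 1881 and 2100 in Pcx L-/- mice. It rose like Fdps, Sqle and Lss, and no Pcx L-/- mouse came within the control range (log2 fold change 0.94, SE 0.14, adjusted p = 0.00124 by edgeR). Acss2, which makes acetyl-CoA from acetate in the cytosol and is also known as a target of SREBPs, fell by 0.89 on the log2 scale (SE 0.18, adjusted p = 0.00564 by edgeR). Of the 8 genes that use isoprenoids only Fntb, a subunit of protein farnesyltransferase, was called (12.5%, against 27.6% of all genes tested). It had 39, 43, 47 and 63 normalized counts in controls and 68, 91, 80 and 93 in Pcx L-/- mice (log2 fold change 0.81, SE 0.20, adjusted p = 0.0137 by edgeR).

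Of 12 genes of cholesterol efflux, uptake and the liver X receptors, 5 fell (41.7%, against 13.5% of all genes tested) and 1 rose (8.33%, against 14.1%). Srebf1, the related factor that drives fatty acid synthesis and a target of the liver X receptors, had 1087, 1356, 1051 and 911 normalized counts in controls and 724, 261, 373 and 340 in Pcx L-/- mice. Its fall of 1.38 on the log2 scale (SE 0.27, adjusted p = 0.00451 by edgeR) was larger than that of Srebf2, a difference that was not tested. The receptor Nr1h3 itself had a log2 fold change of -0.19 (SE 0.13, adjusted p = 0.317 by edgeR). Abcg5 and Abcg8, the paired subunits of the exporter of sterols into bile, lie on opposite strands of chromosome 17 with overlapping annotated spans, so reads may be shared, and had log2 fold changes of -1.24 (SE 0.34) and -1.11 (SE 0.31). In Pcx L-/- replicate 1 they stood at 1736 and 2451 normalized counts, near the lowest controls of 1838 and 2450, and in the other 3 mice between 487 and 680 and between 817 and 1126. Their adjusted p-values of 0.0195 and 0.0203 by edgeR rose past 0.05 without any of Pcx L-/- replicates 2, 3 and 4, to 0.0646 and 0.0652 at most, and that of Abcg8 also without control replicate 3. Scarb1, the receptor for high density lipoprotein (-0.51, SE 0.14), and Lcat, which esterifies cholesterol in plasma (-0.38, SE 0.12), fell as well, and the phospholipid remodelling enzyme Lpcat3 rose (0.45, SE 0.10). Some of these calls did not hold with fewer mice. Mbtps2, Rnf145, Scarb1, Lcat and Fntb each lost theirs in at least 1 fit that left out a mouse, with adjusted p-values by edgeR of 0.0829, 0.0779, 0.0763, 0.109 and 0.0504 at most. Of these fits Mbtps2 kept its call in 2, Lcat in 3, Rnf145 and Scarb1 in 4 and Fntb in 7. The 20 genes of the list that were not called had log2 fold changes from -0.39 to 0.36.

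**Figure D5:**
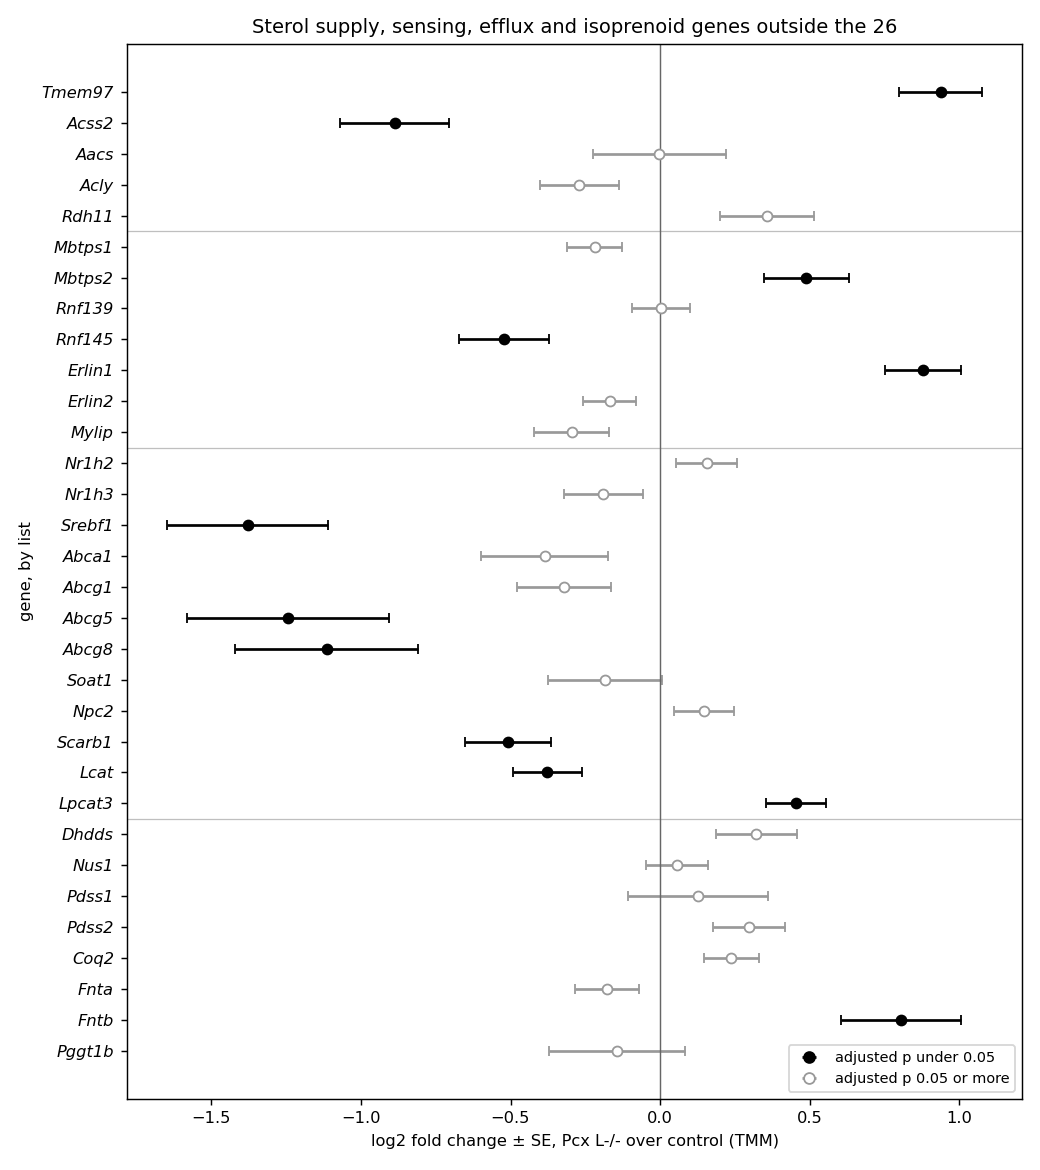
Log2 fold change ± SE, Pcx L-/- over control on the TMM scale, of the 32 further genes, grouped from top to bottom as acetyl-CoA supply and other sterol-responsive genes, SREBP cleavage and sterol-regulated degradation, efflux, uptake and liver X receptors, and use of isoprenoids. Filled black circles passed an adjusted p of 0.05; Tmem97 (0.94) and Erlin1 (0.88) are farthest right and Srebf1 (-1.38) and Abcg5 (-1.24) farthest left.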

How the data were processed

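Total RNA of flash-frozen liver from 4 control and 4 Pcx L-/- mice gave 1 library per mouse, and groups and replicate numbers follow the sample labels. Reads were aligned by the authors to mm10, that is GRCm38, and the deposited table holds unnormalized counts for each Ensembl gene. They also deposited FPKM values, and 100% of the 142384 FPKM values above 0 equal the count divided by a gene length and the library total (relative tolerance 1e-06). The submitters' processing notes list STAR 2.5, HTSeq 0.6.1 and DESeq2. Strand setting and annotation release: not given in the sources used here. Symbols from GENCODE M21 matched 34490 of 35275 identifiers. No column was left unmapped.

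From the counts, edgeR 4.0.16 (R 4.3.3) was run with filterByExpr (minimum count 10, minimum total 15), TMM factors and the quasi-likelihood F test with genotype as the only term, which left 6 residual degrees of freedom and a biological coefficient of variation of 0.181. The study's methods name DESeq2, which was run as an alternative. P-values were adjusted by Benjamini-Hochberg over 13168 genes and never over the list, and genes under 0.05 were called. Standard errors are the log2 fold change over the square root of F. Libraries of 12016242 to 20023108 reads limit precision for genes with few reads, such as Mvd and Idi1. Steps were tested on simulated counts, where edgeR recovered 84.5% of 194 changed genes among 13010, with 7 false calls. Recovery was 69.5% for 2-fold and 99.0% for 4-fold changes, and smaller changes were not simulated. The simulation changed 200 genes, whereas 3632 were called in the data, so it does not test library scaling under that many changes.

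The 26 genes and the further lists were chosen with earlier results of these data known. All 26 genes, every called gene of the further list, Srebf1 and Nr1h3 are named by rule. Apoa1, the other hepatocyte markers and the overlapping genes were named after their values were seen. Further genes of the pathway, 6 in number, are not reported here. Alternatives were DESeq2 1.42.0 (its size factors and its Wald test), library size only, no filter, limma 3.58.1 on log2(FPKM + 1) and log2(FPKM + 0.1), blocking on the replicate number, mouse number series as a covariate or the 800s alone, and each mouse left out. Promoters came from RefSeq (GRCm38.p6).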

Additional observations from a re-analysis of the deposited data

Results flagged for a closer look

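In 92 groups of 4 mice (26 members, part of the further pathway genes and marker lists, each genotype apart), 7 values stood far from the other 3 mice of their group by Dixon's ratio of gap to range. The remaining genes of the further list were not in this screen, so it does not name every such value. Chance flags about 1 in 20 groups. Among the members these were Tm7sf2 in Pcx L-/- replicate 1, with 1212 normalized counts against 939 to 984 in the other Pcx L-/- mice, Msmo1 in Pcx L-/- replicate 3, with 472 against 357 to 373, and Hsd17b7 in control replicate 1, with 872 against 1103 to 1136. Among the further genes screened they were Nr1h3 in control replicate 4, with 2213 against 1619 to 1694, Abcg5 in Pcx L-/- replicate 1, with 1736 against 487 to 680, and Lpcat3 in control replicate 2, with 1489 against 1347 to 1370. Of the marker lists it was the red blood cell sum of Pcx L-/- replicate 1, 69307 against 6244 to 15778. Pcx L-/- replicate 1 thus holds 3 of the 7 values. Without that mouse Tm7sf2 was lower by a log2 fold change of -0.90 and Abcg5 by -1.83.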

How the results depend on the processing

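Across 18 alternatives the 13 called members kept their direction. With library size only, and with limma on log2(FPKM + 1), on log2(FPKM + 0.1) and on log2(FPKM + 1) of all genes above 0, in that order, higher genes among all tested came to 3915, 3875, 3588 and 3373 and lower genes to 870, 820, 749 and 689. In the same order the further list held 12, 12, 11 and 11 higher and 4, 4, 4 and 3 lower genes, and the members' median log2 fold change was 0.00339, -0.0119, -0.0143 and -0.0119. Lower members fell to 5 with limma on log2(FPKM + 0.1) and to 3 with all genes above 0. The cause of these shifts was not tested beyond the change of the all-gene median. Of the uncalled genes of the further list 11 changed sign in at least 1 alternative, Nr1h3 among them, and of the called 0. Uncalled members changed sign as well: in the order above, Mvk to 0.22, 0.19, 0.23 and 0.19, Ggps1 to 0.13, 0.10, 0.14 and 0.10, Cyp51 to 0.21, 0.18, 0.21 and 0.18, Nsdhl to 0.18, 0.18, 0.23 and 0.18, Ebp to 0.0947, 0.0919, 0.0929 and 0.0919 and, of the further list, Nr1h3 to 0.10, 0.10, 0.10 and 0.10. Insig2 did so with library size only (0.0298). The further list held 3 higher genes with the 800s alone. With mouse number series as covariate Mvk was 0.0469, and with the 800s alone Mvk was 0.0543, Ggps1 0.23, Cyp51 0.17 and Nsdhl 0.13.

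With each mouse left out, higher genes among all tested ranged from 1156 to 2232 and lower genes from 953 to 2370, both lowest without Pcx L-/- mouse 4 and both highest without Pcx L-/- mouse 1. In the further list higher genes ranged from 3 to 8, the highest without control 4, and lower genes from 2 to 8. The log2 fold change ranged from -0.146 to 0.0527 for Mvk, -0.173 to 0.0502 for Cyp51, -0.18 to 0.11 for Nsdhl and -0.10 to 0.13 for Sc5d. Replicate numbers did not pair the mice: the deviations of same-numbered mice correlated at 0.0958, -0.1267, -0.0938 and -0.0677, and not every mouse correlated best with its own number. With the replicate block, 1481 genes were higher and 1494 lower, and 4 and 8 members, Hsd17b7 being lost. Depth limits genes with few reads, such as Mvd, Idi1 and Fntb.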
